A study of Mus musculus with 13 samples.

Results

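Transcripts of 9 heat shock chaperones were followed across the cell types of the mouse hippocampus. The members, matched by gene symbol among the 32285 genes of the matrices, were Hspa8, Hspa5, Hsp90aa1, Hsp90ab1, Hsph1, Hspa4l, Dnajb1, Dnaja1 and Hspd1. The study sequenced RNA of single nuclei, sorted by Hoechst stain from whole frozen hippocampus in 13 samples from female mice of a hybrid strain that the labels spell C3HB6F1. A young group of 3 samples came from mice 5 months old and fed ad libitum. The samples from 24-month-old mice comprised 3 fed ad libitum, 3 under acute dietary restriction that began at 20 months, and 4 under long-term restriction that began at 5 months. No group carried a transgene or a deletion, as far as the labels say. The comparisons address how age, and restricted feeding begun early or late in life, relate to gene expression in each cell type. The counts are of nuclear RNA, in which messages that have left the nucleus are missing, and the labels do not say whether each numbered sample held 1 mouse or a pool, so p-values measure the spread between these samples.

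Heat shock chaperones hold unfolded proteins and help them fold, refold or reach degradation. HSP70 proteins bind short stretches of a client in a cycle of ATP hydrolysis, HSP40 proteins bring clients and start that cycle, HSP110 proteins release the spent nucleotide, and HSP90 proteins take over clients such as kinases and receptors at a late stage of folding. Many of these genes are switched on by heat shock factor 1 when unfolded protein accumulates in the cytosol, while the chaperone of the endoplasmic reticulum answers to the unfolded protein response, and neurons carry high constitutive levels of several of them.

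Gene positions below follow GENCODE on GRCm38. Hspa8 (ENSMUSG00000015656, chr9:40800984-40810087, plus strand) encodes the constitutive cytosolic HSP70, which also strips clathrin from synaptic vesicles. Hspa5 (ENSMUSG00000026864, chr2:34771970-34777547, plus strand) encodes BiP, the HSP70 of the endoplasmic reticulum. Hsp90aa1 (ENSMUSG00000021270, chr12:110690605-110702728, minus strand) and Hsp90ab1 (ENSMUSG00000023944, chr17:45567775-45573271, minus strand) encode the stress-inducible and the constitutive cytosolic HSP90. Hsph1 (ENSMUSG00000029657, chr5:149614287-149636376, minus strand) and Hspa4l (ENSMUSG00000025757, chr3:40744495-40796103, plus strand) encode HSP110 nucleotide exchange factors. Dnajb1 (ENSMUSG00000005483, chr8:83608193-83612653, plus strand) and Dnaja1 (ENSMUSG00000028410, chr4:40722150-40737149, plus strand) encode HSP40 co-chaperones. Hspd1 (ENSMUSG00000025980, chr1:55077835-55088243, minus strand) encodes HSP60, the folding chamber of mitochondria. Hspd1 overlaps its partner Hspe1 on the opposite strand, and Dnaja1 overlaps Smu1 and the long non-coding RNA Gm6297 on the opposite strand. Whether the counting used strand is not given in the sources used here, so UMIs of these overlapping pairs are uncertain, as are UMIs of family members and processed copies that resemble each other.

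RefSeq promoter windows on GRCm38.p6 were at hand for 6 of the 9 members, as 11 windows of 300 bases that reach from 250 bases before to 50 after a start site. They were searched on both strands for paired heat shock elements, written GAANNTTC and TTCNNGAA, for 3 units in a row, which is GAANNTTC followed directly by NNGAA, and for the endoplasmic reticulum stress element, which is CCAAT and CCACG with 9 bases of any kind between them. The 3-unit element contains both paired ones. These motifs are shown because the first 3 are what heat shock factors bind and the last is the element of unfolded protein response targets. The 30 bases around the matches before the RefSeq start sites read as follows, in capitals where a motif or overlapping motifs lie.
Hspa5: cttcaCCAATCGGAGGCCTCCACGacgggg
Hsph1: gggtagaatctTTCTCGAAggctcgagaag
Hspd1: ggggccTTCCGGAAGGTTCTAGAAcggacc
Dnaja1: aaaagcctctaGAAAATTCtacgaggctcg
The Hspa5 stretch lies at chr2:34772020-34772049 (plus strand), the Hsph1 stretch at chr5:149636351-149636380 (minus strand), the Hspd1 stretch at chr1:55088053-55088082 (minus strand, before the second of 2 starts) and the Dnaja1 stretch at chr4:40722333-40722362 (plus strand, before the first of 3 starts). By GENCODE, other starts lie upstream: the Hspa5 and Hspd1 stretches lie wholly, and the Hsph1 stretch over 26 of its 30 bases, in the 5′ UTR of a transcript of the same gene, and the Dnaja1 stretch lies in exons of a non-coding Dnaja1 transcript and of Gm6297. The Hspa5 element begins 65 bases before the RefSeq start. Among all 32851 windows, 0.119% held that element, 15.1% held a paired heat shock element of either orientation and 0.603% held 3 units. A paired element was found in windows of Hsph1, Hspd1 and Dnaja1, and 3 units in windows of Hsph1 (37 bases after its first start) and of Hspd1, where they overlap in the capitals above. The windows of Hspa4l and Dnajb1 held none of these letters. A match describes the sequence only.

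The 13 libraries held 105759 barcodes and between 38546292 and 80538090 UMIs each. After filters and the removal of 7386 called doublets, 98041 nuclei formed 42 clusters, of which 18 were named from marker genes into 13 classes; the remaining 18.6% of nuclei stayed unnamed and enter no class. Of 96866 distinct barcodes, 1168 occurred in more than 1 library. For 9 classes, raw UMIs were summed per library and tested across libraries: granule-like, CA1-like, CA3-like, inhibitory-like and subicular-like (subicular or cortical excitatory) neurons, and astrocyte-, oligodendrocyte-, oligodendrocyte precursor- and microglia-like cells. These names rest on rebuilt clusters, and the dentate granule, CA1 and CA3 markers that define hippocampal neurons were present. Levels are counts per 1000000 UMIs of the class sum, scaled by edgeR's TMM factors (CPM), and differences are log2 fold changes ± SE from edgeR's quasi-likelihood test, called at a Benjamini-Hochberg adjusted p under 0.05. The 4 libraries that the labels number 1, 1 in each group, stood apart: oligodendrocyte-like nuclei made up 0.842% to 4.10% of their named nuclei against 9.21% to 27.8% in the other 9 libraries. Their median depth was 6879 to 11195 UMIs per nucleus against 3688 to 8629. The number 1 is the same in the labels and in the names of the files, whereas 4 of the other 9 samples carry a different number in each. What the number 1 marks is not given in the sources used here, so these libraries are shown apart throughout and results are given with and without a term for them.

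Of 81 pairs of a member and a class, 73 passed edgeR's filter on low counts and were tested. The 8 that did not pass were Dnajb1 in CA3-like neurons and in astrocyte-, microglia-, precursor- and subicular-like sums, with 0 to 16 UMIs per library, and Hspa4l, Hspd1 and Hsph1 in microglia-like sums, with 0 to 17 UMIs. The class sums held 50098 UMIs of Hsp90ab1 and 1256 of Dnajb1, the most and the fewest of the 9 members. In sums over a class, fewer cells that express a gene and less RNA in each cannot be told apart. As a check on free RNA, transcripts that mark neurons (Camk2a, Nrgn, Rbfox3, Slc17a7, Snap25 and Syt1) stood in glia-like sums at a median of 1.75% to 38.1% of their level in granule-like neurons of the same library, gene by gene. The members stood at 43.5% to 438% there.

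Each chaperone had its own order of levels over the classes in which it passed the filter, and most neighbours in that order lay within each other's spread. Classes under the filter are left out of these orders. Hsp90aa1 was highest in oligodendrocyte-like cells, at a mean of 7.16 ± 0.40 log2 CPM (SD, n = 13 libraries), followed by microglia-like cells at 6.18 ± 0.63 and, lowest, granule-like neurons at 5.01 ± 0.28. In CPM the oligodendrocyte-like libraries ranged from 92.5 to 209.7, against 23.1 to 49.6 in granule-like neurons, so no library of the former lay as low as any of the latter. The first step, between oligodendrocyte- and microglia-like cells, was larger than either SD. Among the 8 classes where it passed the filter, Hspa4l was highest in subicular-like neurons at 7.29 ± 0.17. Inhibitory-like neurons followed at 6.34 ± 0.15, and granule-like neurons were lowest of the 8 at 5.26 ± 0.20. In microglia-like sums, under the filter with 0 to 6 UMIs, Hspa4l stood at a median of 43.5% of its granule-like level. In subicular-like neurons all 13 libraries held 123 to 178 CPM of Hspa4l, and in granule-like neurons 27.8 to 43.6 CPM. Both of its first steps went beyond the spread, so subicular- and inhibitory-like neurons stood apart from the rest for this HSP110. Dnajb1 stood at 2.67 ± 0.40 in oligodendrocyte-like cells, 1.97 ± 0.41 in inhibitory-like, 1.28 ± 0.58 in CA1-like and 1.08 ± 0.47 in granule-like neurons, with the first 2 steps beyond the spread but only 1 to 15 UMIs behind each oligodendrocyte-like value.

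Hspa8 ran from 7.04 ± 0.62 log2 CPM in oligodendrocyte-like and 6.98 ± 0.40 in microglia-like cells to 5.54 ± 0.91 in CA1-like neurons without a step beyond the spread. Hspa5 ran from 6.92 ± 0.56 in microglia-like cells to 5.02 ± 0.52 in subicular-like neurons, and Hsp90ab1 from 7.79 ± 0.50 in oligodendrocyte-like cells to 6.43 ± 0.55 in granule-like neurons, again without such a step. As shares of a class's UMIs, the HSP70s and the constitutive HSP90 thus had glia-like classes at the top of their orders and neuron-like classes below. Glia-like nuclei held fewer UMIs: in old ad libitum libraries medians were 1988 to 3144 per oligodendrocyte-like and 10519 to 19211 per CA1-like nucleus. Levels per nucleus were not compared, and their order can differ. Hsph1 ran from 5.56 ± 0.29 in precursor-like cells to 4.58 ± 0.17 in inhibitory-like neurons. Dnaja1 lay between 5.07 ± 0.28 and 5.32 ± 0.27 in 8 of 9 classes, with microglia-like cells at 5.92 ± 0.75 from 2 to 24 UMIs per library. Hspd1 ran from 4.92 ± 0.37 in oligodendrocyte-like cells to 3.98 ± 0.25 in CA1-like neurons, and CA3-like neurons (n = 11) at 4.36 ± 0.30 stood above granule-like neurons at 3.99 ± 0.25 by more than either SD. These levels are not per length and not per nucleus, and are not compared between genes. All are a description with no test.

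**Figure D1:**
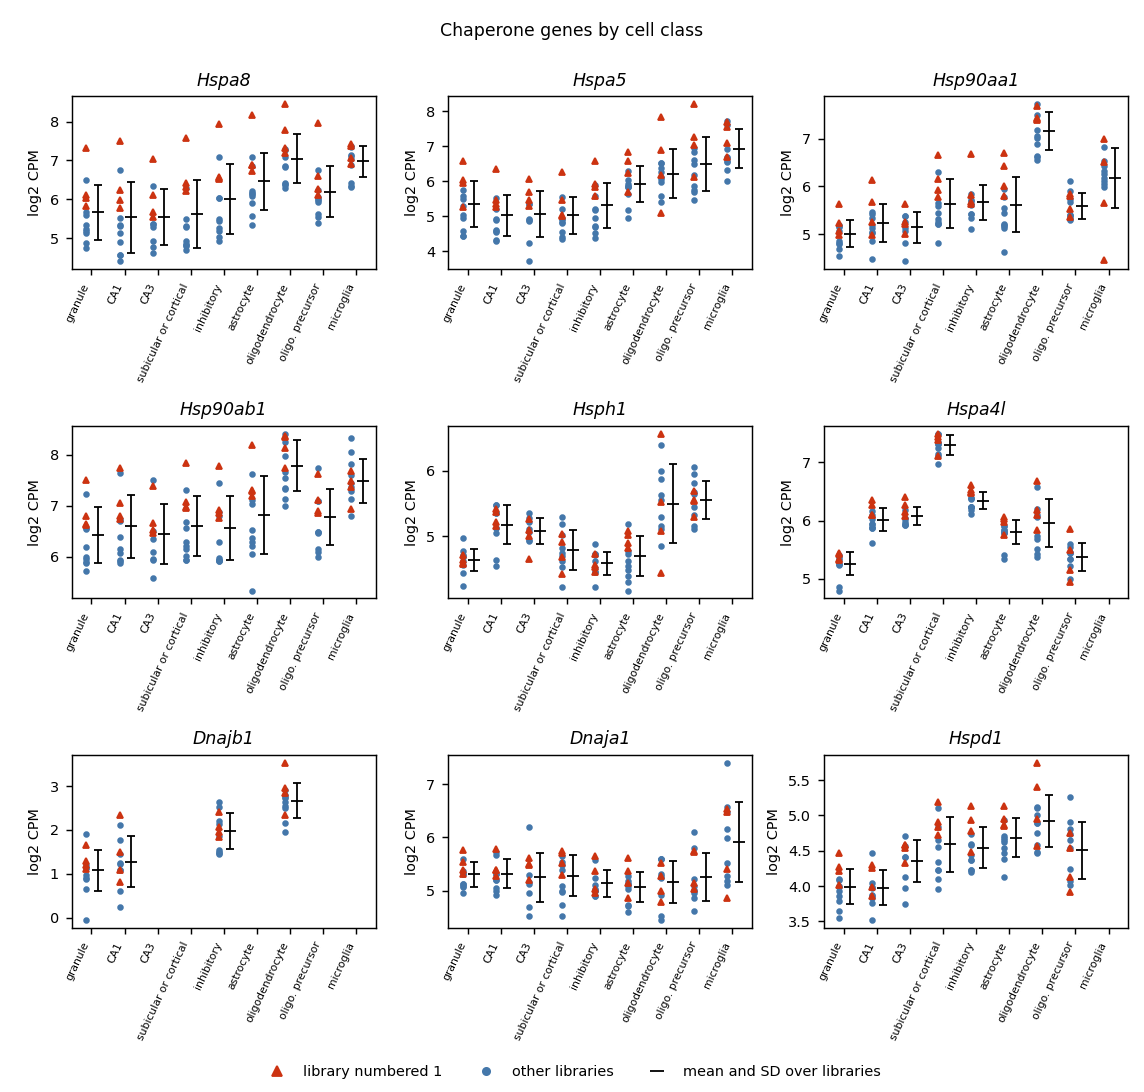
Level of each chaperone on a log2 CPM axis in the marker-defined classes, 1 point per library with the mean and SD of the libraries. Hsp90aa1 stands apart in oligodendrocyte-like cells and Hspa4l in subicular-like neurons, while most other neighbouring classes overlap.

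More pairs of a chaperone and a class were called for library number than for age or diet. The number 1 sets up to 4 libraries against 9 and age up to 3 against 3, so these counts do not rest on equal numbers of libraries. Age was called in 1 pair on groups alone and in 21 with a term for the number 1. Fitted beside the 4 groups, a term for the number 1 was called in 25 of the 73 pairs, all 25 higher in libraries numbered 1, over 7 of the 9 genes. Over all genes and classes 9.40% of pairs were called, 3.82% higher and 5.57% lower, against 34.2% of the members' pairs. The library numbered 1 was the highest of its group in 196 of 292 cases of a member, class and group and the lowest in 30, against 34% highest and 34.7% lowest over all genes. By class, 5 of 9 members were called in granule-like neurons, where 22.6% of all genes were, and 5 of 9 in inhibitory-like neurons, where 10.6% were. The counts were 4 of 9 in CA1-like neurons (12.5% of all genes), 4 of 8 in astrocyte-like cells (9.97%) and 4 of 8 in subicular-like neurons (4.23%). One member was called in each of CA3-like neurons (4.11%), oligodendrocyte-like cells (0.883%) and precursor-like cells (4.59%). In microglia-like cells 0 of 5 were called (1.43% of all genes), with 0 of the 5 at an unadjusted p under 0.05 by edgeR and 0 by DESeq2.

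Hspa8 was called in the most classes, 8 of 9. In young ad libitum mice, Hspa8 stood at 159.7 CPM in library 1 against 90.2 and 51.3 CPM in the others, and in old ad libitum mice at 69.6 CPM in library 1 against 29.4 and 35.0 CPM. Under acute restriction it stood at 56.5 CPM in library 1 against 37.6 and 40.1 CPM, and under long-term restriction at 65.5 CPM in library 1 against 48.4, 26.8 and 36.0 CPM. These are values in granule-like neurons, where library 1 was the highest of each of the 4 groups, and young library 2 lay above all 3 old libraries numbered 1. The log2 difference was 0.91 ± 0.17 (adjusted p = 0.00273), or 1.88-fold, and in that class 22.6% of all genes were called for the number 1, 9.11% higher. In subicular-like neurons, Hspa8 measured 189.7 CPM in library 1 against 76.8 and 43.2 CPM in young mice and 78.3 CPM in library 1 against 23.9 and 26.2 CPM in old ad libitum mice, a difference over all 4 groups of 1.47 ± 0.14 (adjusted p = 5.53e-07). Astrocyte-like cells gave 1.00 ± 0.12 (adjusted p = 4.46e-06), inhibitory-like neurons 1.20 ± 0.21 (adjusted p = 0.00632) and CA1-like neurons 1.13 ± 0.23 (adjusted p = 0.0102). The remaining calls, in CA3-like neurons, oligodendrocyte-like and precursor-like cells, lay between 0.84 and 0.92. Microglia-like cells gave 0.23 ± 0.26 (adjusted p = 0.758) on 4 to 62 UMIs per library. The library numbered 1 was the highest of its group in 34 of 36 cases for Hspa8.

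BiP followed a similar course. In young ad libitum mice, Hspa5 stood at 95.4 CPM in library 1 against 44.9 and 23.6 CPM in the others, and in old ad libitum mice at 38.3 CPM in library 1 against 21.3 and 21.6 CPM. Under acute restriction it stood at 61.4 CPM in library 1 against 47.5 and 39.1 CPM, and under long-term restriction at 65.9 CPM in library 1 against 53.7, 32.6 and 30.9 CPM. The granule-like difference was 0.90 ± 0.20 (adjusted p = 0.00846), with library 1 the highest of each group. Hspa5 was also called in CA1-like (0.84 ± 0.16, adjusted p = 0.00393), inhibitory-like (0.93 ± 0.20, adjusted p = 0.0128) and subicular-like neurons (0.66 ± 0.18, adjusted p = 0.0326) and in astrocyte-like cells (0.64 ± 0.12, adjusted p = 0.00101).

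Of the HSP90s, the constitutive Hsp90ab1 was called in 5 classes and the inducible Hsp90aa1 in 2. In young ad libitum mice, Hsp90ab1 stood at 183 CPM in library 1 against 151 and 93.4 CPM in the others, and in old ad libitum mice at 112 CPM in library 1 against 62.3 and 58.5 CPM. Under acute restriction it stood at 98.4 CPM in library 1 against 73.3 and 63.3 CPM, and under long-term restriction at 99.7 CPM in library 1 against 94.1, 59.1 and 52.7 CPM. Library 1 was again the highest of each group in granule-like neurons, by 0.63 ± 0.15 (adjusted p = 0.0104). Astrocyte-like cells gave 0.87 ± 0.15 (adjusted p = 0.000912) for Hsp90ab1 and 0.82 ± 0.15 (adjusted p = 0.000530) for Hsp90aa1, and subicular-like neurons 0.84 ± 0.13 (adjusted p = 0.000458) and 0.74 ± 0.18 (adjusted p = 0.0185). In granule-like neurons Hsp90aa1 was not called, at 0.30 ± 0.13 (adjusted p = 0.119): library 1 was the highest in both ad libitum groups but not under restriction, where it stood at 31.5 CPM against 35.8 and 28.1 CPM in the acute group.

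The HSP110s, HSP40s and HSP60 were called in 5 of 37 pairs, where the HSP70s and HSP90s were called in 20 of 36. The difference between these sets was not tested. In granule-like neurons Dnaja1 was higher in libraries numbered 1 by 0.28 ± 0.08 (adjusted p = 0.0248) and Hspd1 by 0.35 ± 0.11 (adjusted p = 0.0254). Hspd1 was also called in inhibitory-like neurons, at 0.41 ± 0.11 (adjusted p = 0.0214). Hspa4l was called in CA1-like neurons at 0.27 ± 0.09 (adjusted p = 0.0496) and in inhibitory-like neurons at 0.26 ± 0.07 (adjusted p = 0.0296). In the latter the libraries numbered 1 held 88.6 to 96.6 CPM of Hspa4l and the others 68.4 to 83.2 CPM. All 4 libraries numbered 1 thus lay above all 9 others, the only member and class of the 73 without overlap in this comparison, where 3.66% of all pairs did not overlap. Hsph1, the other HSP110, was called in 0 of 8 classes by edgeR and by DESeq2 (1 at an unadjusted p under 0.05 in edgeR, 0 in DESeq2), with differences from -0.10 to 0.37, and library 1 was the highest of its group in 9 of 32 cases and the lowest in 10. Dnajb1 was called in 0 of 4 classes by both tools, with 0 at an unadjusted p under 0.05 and differences from 0.14 to 0.38.

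**Figure D2:**
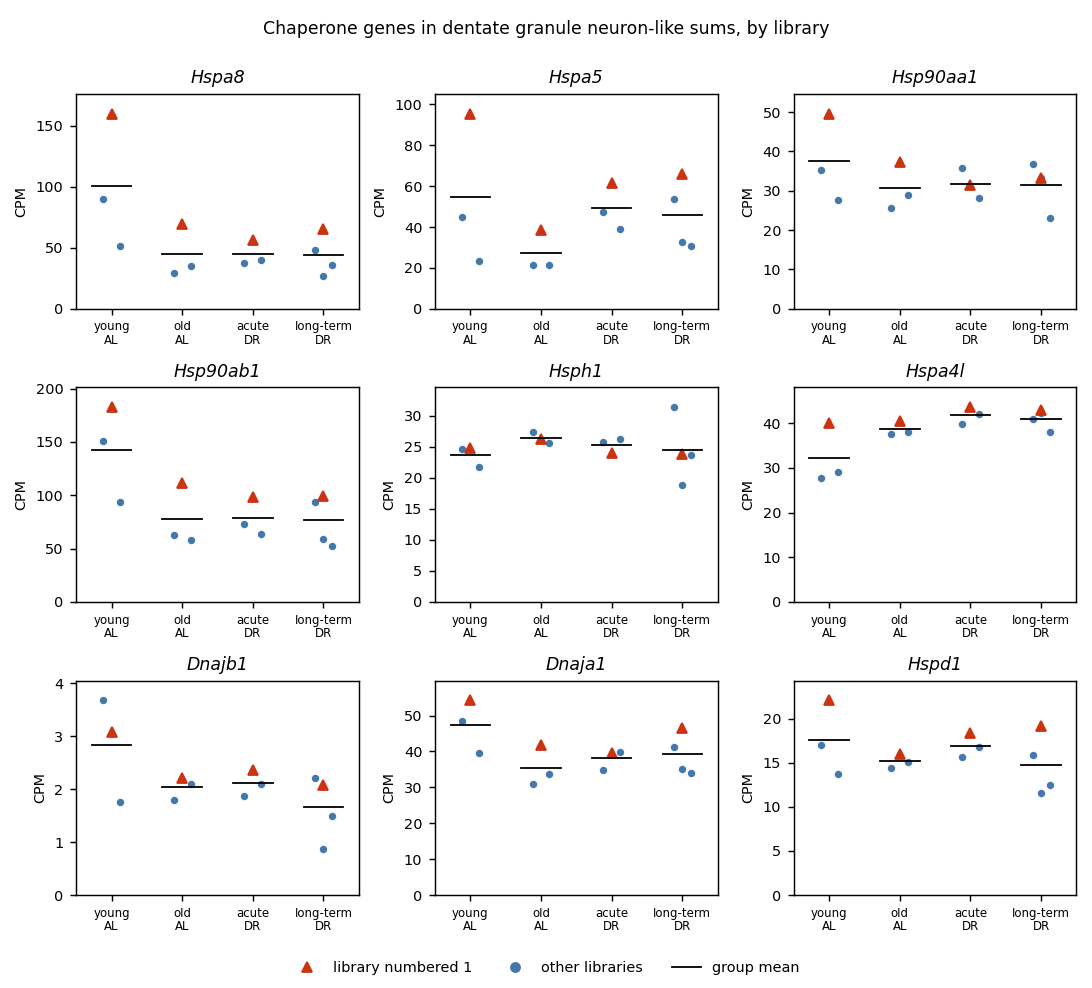
CPM of each chaperone in granule-like neurons by group, 1 symbol per library; red triangles are libraries numbered 1, blue points the others and black lines group means. For Hspa8, Hspa5 and Hsp90ab1 the triangle is the top symbol of every group, and for Hsph1 it is not.

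**Figure D3:**
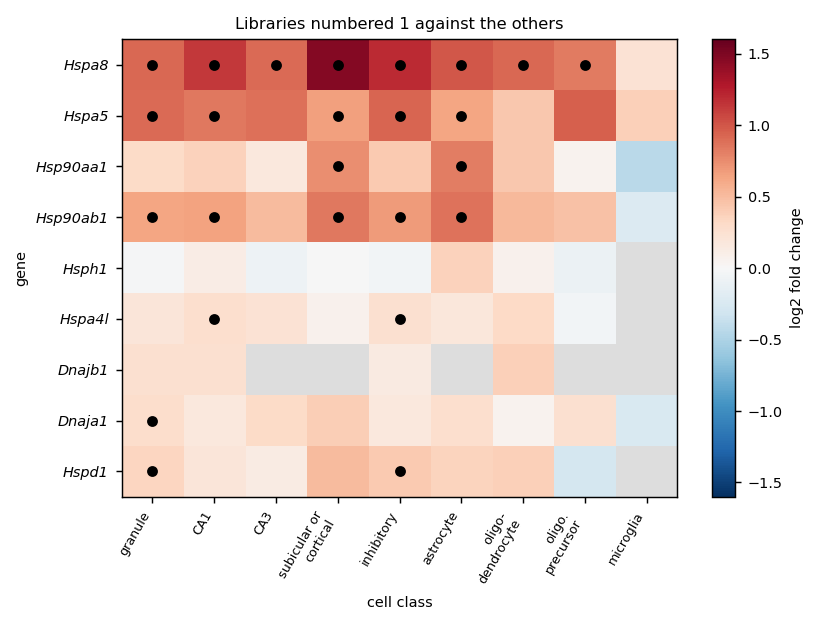
Log2 fold change of libraries numbered 1 against the others, by chaperone and class, from a fit with the 4 groups; black dots mark an adjusted p under 0.05 and grey cells were not tested. The 25 dots lie on positive values, with 8 of them in the Hspa8 row and none in the Hsph1 and Dnajb1 rows.

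The count of calls for the number 1 was 26 by DESeq2, 25 with the trend over gene length removed and 21 with median UMIs per nucleus as a covariate. It ranged from 13 to 29 when 1 library was left out, and young ad libitum library 1 gave the 13. Without that library Hspa8 was called in 5 classes (granule-, inhibitory-, subicular-, astrocyte- and oligodendrocyte-like), Hspa5 in 4, which include precursor-like cells, Hsp90ab1 in 3 and Hsp90aa1 in 1. The shares of all pairs called in these alternatives are not given here, so these counts have no background beside them. Neuronal transcripts also differed between these libraries: in astrocyte-like cells, Nrgn was higher in libraries numbered 1 by 1.66 ± 0.12 (adjusted p = 2.53e-10), Camk2a by 1.00 ± 0.13 (adjusted p = 7.49e-06) and Rbfox3, named after its value was seen, by 0.68 ± 0.21 (adjusted p = 0.0402), while Snap25, Syt1 and Slc17a7 were not called. Nrgn was called higher in 5 neuron-like classes as well. In oligodendrocyte-, precursor- and microglia-like cells their smallest adjusted p was 0.0510, for Nrgn in precursor-like cells. Apart from the fit with depth as a covariate, the part of free RNA, of depth and of the low oligodendrocyte-like share in the members' difference was not tested.

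With age, most chaperones had lower values in the old ad libitum mice than in the young ones, but few of these differences passed the test unless libraries numbered 1 were accounted for. In the fit on the 4 groups alone, 64 of the 73 pairs lay below 0, with a median log2 fold change of -0.50 against -0.02 and 52.3% below 0 over all genes and classes. In all, 26 pairs had an unadjusted p under 0.05 and 1 was called, Dnaja1 in oligodendrocyte-like cells, where 1.48% of all pairs were called, 0.702% lower, and in that class 6.28%, 4.01% lower. With 1 library left out, the members' median ran from -0.65 without old ad libitum library 1 to -0.31 without young library 1. The 26 pairs became 9 without young library 1, 8 without old ad libitum library 2 and 37 without young library 3. With a term for the number 1, 21 members' pairs were called, all lower: Hspa8 in 6 classes, Hsp90ab1 in 6, Hspa5 in 5 and Dnaja1 in 4, against 7.13% of all pairs (4.34% lower). Without libraries numbered 1, 12 were called, 11 lower and 1 higher, which was Hspa4l in granule-like neurons. The share of all pairs called in that fit is not given here, so these 12 have no background beside them. The groups' values did not overlap in 15 pairs that were lower and 1 that was higher, which is 20.5% and 1.37% of the 73, beside 9.58% and 12.5% of all pairs.

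Hspa8 lay below 0 in 9 of 9 classes with and without the number 1 in the fit, and was called lower in 6 with it. In granule-like neurons the young libraries held 159.7, 90.2 and 51.3 CPM and the old ad libitum libraries 69.6, 29.4 and 35.0 CPM, in the order of their numbers. The old library 1 lay between the young libraries 2 and 3, so the groups overlapped. The log2 fold change was -1.18 ± 0.46 (adjusted p = 0.139) on groups alone and -1.16 ± 0.23 (adjusted p = 0.00992) with the term. Astrocyte-like cells held 285, 134 and 115 CPM when young and 116, 46.1 and 58.7 CPM when old, which gave -1.26 ± 0.18 (adjusted p = 0.000255) with the term. The other calls with the term were -1.33 ± 0.30 (adjusted p = 0.0399) in inhibitory-like and -1.28 ± 0.21 (adjusted p = 0.00325) in subicular-like neurons, -1.21 ± 0.25 (adjusted p = 0.00279) in precursor-like and -0.98 ± 0.19 (adjusted p = 0.000659) in oligodendrocyte-like cells. In CA1-, CA3- and microglia-like sums Hspa8 lay below 0 without passing the test. For this gene and those below, the share of all genes called with age and the term is not given class by class. Over all classes it was 7.13% of pairs, 4.34% lower.

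Hspa5, the chaperone of the endoplasmic reticulum, was below 0 in 9 of 9 classes on groups alone, from -1.40 to -0.40. It was called in 0 by edgeR (5 at an unadjusted p under 0.05) and in 1 by DESeq2, with no DESeq2 share of all genes given here. In granule-like neurons it stood at 95.4, 44.9 and 23.6 CPM in young and 38.3, 21.3 and 21.6 CPM in old ad libitum mice, with young library 3 between the old ones. With the term for the number 1 it fell in granule-like neurons by 0.92 ± 0.28 (adjusted p = 0.0427), and by 0.88 ± 0.23 (adjusted p = 0.0429) in CA1-like and 1.03 ± 0.25 (adjusted p = 0.0452) in subicular-like neurons. In astrocyte-like cells the young libraries, at 112, 56.8 and 56.2 CPM, all lay above the old ones, at 50.2, 29.4 and 35.2 CPM. That difference was -0.97 ± 0.19 (adjusted p = 0.00633) with the term, and oligodendrocyte-like cells, at -1.02 ± 0.31 on groups alone, passed with it (adjusted p = 0.0204).

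Hsp90ab1 lay at 183, 151 and 93.4 CPM in young and 112, 62.3 and 58.5 CPM in old granule-like neurons. The fit with the term gave -0.91 ± 0.21 (adjusted p = 0.0149), and on groups alone -0.88 ± 0.34 (adjusted p = 0.137). On groups alone Hsp90ab1 was called in 0 classes by edgeR and in 3 by DESeq2, with no DESeq2 share of all genes given here. It was called lower with the term in inhibitory-like (-1.13 ± 0.23, adjusted p = 0.0274) and subicular-like neurons (-0.85 ± 0.19, adjusted p = 0.0234) and in astrocyte-like (-1.09 ± 0.22, adjusted p = 0.0137), precursor-like (-1.05 ± 0.21, adjusted p = 0.00203) and oligodendrocyte-like cells (-0.98 ± 0.27, adjusted p = 0.0438). Its paralog Hsp90aa1 also lay below 0 in 9 of 9 classes, from -0.73 to -0.16 on groups alone, and was called in 0 classes by edgeR with or without the term and in 0 by DESeq2, with 1 class at an unadjusted p under 0.05 on groups alone and 2 with the term. The difference between the paralogs was not tested.

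The HSP110s lay on both sides of 0. Hsph1 lay between -0.17 and 0.16 over 8 classes, 4 above and 4 below 0, and in granule-like neurons its young libraries, at 24.8, 24.6 and 21.7 CPM, all lay below the old ones, at 26.2, 27.3 and 25.6 CPM. That difference was 0.16 ± 0.15 (adjusted p = 0.487). Hspa4l lay between -0.39 and 0.26, 5 of 8 classes above 0, with 0.26 ± 0.12 (adjusted p = 0.196) in granule-like neurons. By edgeR 0 pairs of either HSP110 were called with or without the term, and 0 by DESeq2. On groups alone 0 had an unadjusted p under 0.05 by either tool, and with the term 1 had, of Hspa4l. Hspa4l in granule-like neurons was called higher with age without libraries numbered 1, at 0.42 ± 0.12 (adjusted p = 0.0342), and without young library 1 alone, at 0.45 ± 0.10 (adjusted p = 0.0257).

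Of the HSP40s, Dnaja1 fell in oligodendrocyte-like cells. There it measured 30.7, 46.9 and 36.4 CPM in young and 26.5, 20.6 and 21.9 CPM in old ad libitum libraries, on 3 to 115 UMIs per library over all groups. The groups did not overlap, but young library 1 held only the 3 UMIs, so its place above the old libraries is uncertain. The log2 fold change was -0.90 ± 0.26 (adjusted p = 0.0351). The call was lost in 10 of 25 alternatives, over which the adjusted p ranged from 0.0212 to 0.959: by DESeq2 (0.167), with the trend over gene length removed, with no filter on low counts, with median UMIs per nucleus as a covariate with or without the number 1, where the value without it was -0.44 ± 0.42, and without acute library 2, old ad libitum libraries 2 or 4, or young libraries 2 or 3. With the term for the number 1, Dnaja1 was also called lower in granule-like (-0.42 ± 0.11, adjusted p = 0.0199), CA1-like (-0.51 ± 0.13, adjusted p = 0.0335) and inhibitory-like neurons (-0.54 ± 0.14, adjusted p = 0.0370). Dnajb1 lay below 0 in 4 of 4 classes, from -1.11 to -0.47, and HSP60's Hspd1 in 8 of 8, from -0.71 to -0.07, with 0 called for either gene by edgeR or DESeq2. In edgeR 2 pairs of Dnajb1 and 1 of Hspd1 had an unadjusted p under 0.05. When all 10 old libraries were set against the 3 young ones, 2 pairs did not overlap, Dnajb1 in inhibitory-like and Dnaja1 in CA1-like neurons, both lower when old (6.15% of all pairs did not overlap). Dnajb1 stood there at 4.82, 5.72 and 5.25 CPM in young libraries and 2.24 to 4.12 CPM in old ones, on 4 to 26 UMIs. Dnaja1 stood at 55.0, 52.4 and 50.4 CPM in young and 29.9 to 41.7 CPM in old libraries of CA1-like neurons.

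**Figure D4:**
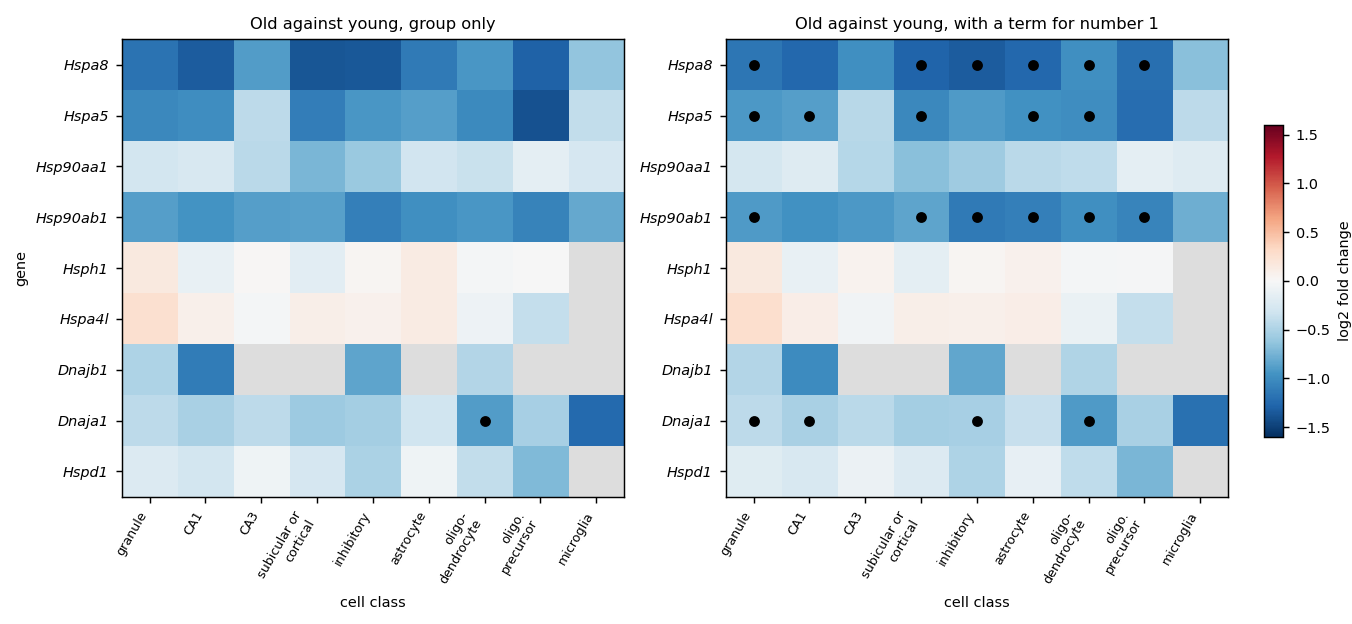
Log2 fold change of old against young ad libitum libraries by chaperone and class, from the fit on groups alone (first panel) and with a term for the number 1 (second panel); black dots mark an adjusted p under 0.05 and grey cells were not tested. The colours of both panels are alike, and the dots increase from 1 to 21.

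Other measures were read beside these genes, and some of them overlapped between young and old ad libitum libraries. In microglia-like sums the neuronal Snap25 stood at 38.6, 96.5 and 81.7 CPM in young and 142, 254 and 306 CPM in old ad libitum libraries, without overlap. Slc17a7 there overlapped, at 38.6, 60.3 and 48.05 CPM against 30.4, 51.6 and 66.3 CPM. In astrocyte-like sums Nrgn ran the other way with overlap, at 160, 55.7 and 53.6 CPM against 114, 34.6 and 31.3 CPM. Oligodendrocyte-like nuclei were 0.842% to 10.2% of named nuclei in young and 4.10% to 20.2% in old ad libitum libraries, which overlapped too. The part of these in the members' differences was not tested. Median UMIs per granule-like nucleus were 3879 to 6556 in young and 7065 to 12789 in old ad libitum libraries, which did not overlap. The same held for 7 of the 9 classes, all but CA1- and CA3-like neurons: medians were 1181 to 1661 and 1988 to 3144 UMIs in oligodendrocyte-like, 1619 to 2535 and 2854 to 5026 in astrocyte-like and 1907 to 2841 and 3402 to 5999 in precursor-like cells. Depth and age cannot be told apart in these 7 classes. With this depth as a covariate 0 members' pairs were called by edgeR, with 22 at an unadjusted p under 0.05 and a median of -0.65, and with depth and the number 1 together 1 was called, Hspa8 in astrocyte-like cells at -1.34 ± 0.30. Of the 9 members, 8 span less than the median of 24.9 kb of the genes tested in granule-like neurons. With the trend over gene length removed, 0 were called by edgeR, 9 had an unadjusted p under 0.05, 59 of 73 lay below 0 and the median was -0.32. One of the 3 granule-like clusters, led by Dsp and Lct, made up 51.9% to 64.2% of granule-like nuclei in young libraries, 5.09% to 14.6% in old ad libitum libraries, 18.9% to 20.2% under acute and 4.84% to 27.3% under long-term restriction. Fitted cluster by cluster with the term for the number 1, Hspa8 was lower with age in each of the 3 clusters (-1.02 ± 0.22, -1.13 ± 0.22 and -1.20 ± 0.31), as was Hsp90ab1 (-0.81 ± 0.20, -0.85 ± 0.21 and -0.82 ± 0.22). Dnaja1 was called in 2 of them. Of all genes tested, 16.5%, 15.9% and 13.3% were called in the 3 clusters in that fit. On groups alone 0 members were called by edgeR in each of the 3, with 4, 3 and 2 at an unadjusted p under 0.05, and DESeq2 was not run on single clusters.

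Under acute restriction, the HSP40 Dnaja1 was higher in oligodendrocyte-like cells than in old ad libitum mice. It was the 1 of the 73 pairs that was called, with 6 at an unadjusted p under 0.05, a median of 0.13 and 53 of 73 above 0. Of all pairs 0.212% were called, and of the genes tested in oligodendrocyte-like cells 1.71%. Dnaja1 measured 37.4, 37.4 and 47.0 CPM under acute restriction and 26.5, 20.6 and 21.9 CPM in old ad libitum libraries, without overlap. It rose by 0.93 ± 0.23 (adjusted p = 0.0269). The same old ad libitum values entered the comparison with age, so the fall of Dnaja1 there and its rise here are not independent. The call was lost in 7 of 25 alternatives, over which the adjusted p ranged from 0.0138 to 0.593: by DESeq2 (0.185), with the depth covariate, with depth and the number 1 together, and without acute libraries 2 or 3 or old ad libitum libraries 2 or 4. Its value lay between 0.68 and 1.00 over the 25 alternatives. With the depth covariate the members' median was 0.26 and 60 of 73 lay above 0, and with depth and the number 1 together it was 0.08 and 42 lay above 0. With the term for the number 1, Hspa5 (0.97 ± 0.24, adjusted p = 0.0240) and Hspa4l (0.72 ± 0.20, adjusted p = 0.0326) were called beside Dnaja1 (0.93 ± 0.22, adjusted p = 0.0138), 3 of 9 members tested in that class, where 2.83% of genes were called with the term, against 0.436% of all pairs. With depth added to that term, 0 of the 73 pairs were called by edgeR.

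In these oligodendrocyte-like cells Hspa5 stood at 71.0, 90.8 and 81.9 CPM under acute restriction against 32.4, 46.8 and 41.1 CPM in old ad libitum mice. Hspa4l stood at 101, 72.6 and 67.1 CPM against 56.0, 44.2 and 41.9 CPM. Hsph1 stood at 93.4, 62.5 and 57.3 CPM against 32.4, 38.1 and 33.3 CPM, on 2 to 192 UMIs per library over all groups. None of the 3 overlapped between the groups, and on groups alone none was called: Hspa5 gave 0.98 ± 0.28 (adjusted p = 0.0949), Hspa4l 0.73 ± 0.21 (adjusted p = 0.0768) and Hsph1 0.87 ± 0.28 (adjusted p = 0.149). Median UMIs per oligodendrocyte-like nucleus were 1577 to 1888 under acute restriction and 1988 to 3144 in old ad libitum libraries, which did not overlap. The acute libraries also lay below the old ad libitum ones without overlap in granule-, CA1- and subicular-like neurons, so depth and diet cannot be told apart in these 4 of the 9 classes. Across all classes 8 pairs lay higher without overlap and 0 lower, 11.0% of the 73 beside 6.32% of all pairs that were higher. The other 4 were Hspa5 in granule-like neurons, astrocyte- and precursor-like cells and Dnajb1 in CA1-like neurons.

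**Figure D5:**
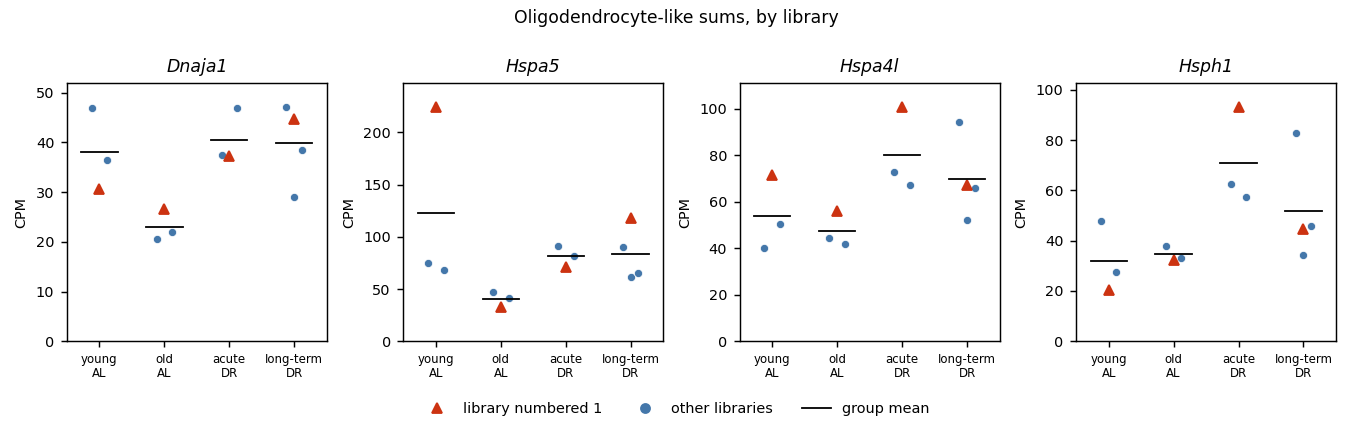
CPM of Dnaja1, Hspa5, Hspa4l and Hsph1 in oligodendrocyte-like cells by group, 1 symbol per library; red triangles are libraries numbered 1, blue points the others and black lines group means. All 3 acute libraries lie above all 3 old ad libitum libraries for each of the 4 genes.

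Under long-term restriction 0 of the 73 pairs were called against old ad libitum mice by edgeR and 0 by DESeq2, with 6 at an unadjusted p under 0.05 in edgeR, where 0.0315% of all pairs were called. The median was 0.12 and 48 of 73 lay above 0. Without old ad libitum library 2 the median was -0.03, and 0.01 for acute restriction, and without old ad libitum library 1 they were 0.34 and 0.35. The comparison with age used the 3 old ad libitum libraries too, so falls with age and rises under restriction are not independent. Both restricted groups were compared with these same 3 libraries, so their values are set side by side without a count in common. Hspa5 lay above 0 in 9 of 9 classes in each, from 0.25 to 1.09 under long-term and from 0.24 to 1.11 under acute restriction, none called. In granule-like neurons it gave 0.78 ± 0.45 (adjusted p = 1.000) under long-term and 0.88 ± 0.47 (adjusted p = 0.991) under acute restriction, and in oligodendrocyte-like cells 0.87 ± 0.27 (adjusted p = 0.239) and 0.98 ± 0.28 (adjusted p = 0.0949). With the term for the number 1, Hspa5 in astrocyte-like cells was called higher under long-term restriction, at 1.01 ± 0.18 (adjusted p = 0.0392), where 0.113% of all pairs were called. That call was absent with depth and the number 1 together (adjusted p = 0.138), with the replicate block (adjusted p = 0.0948), which called 3 other pairs, and without libraries numbered 1 (adjusted p = 0.0808), at values of 1.02 to 1.09. There it stood at 94.1, 77.4, 48.7 and 64.0 CPM against 50.2, 29.4 and 35.2 CPM in old ad libitum libraries, library 1 highest in both, and library 3 of the restricted group below the old library 1.

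In oligodendrocyte-like cells long-term restriction gave 44.7, 47.2, 29.1 and 38.6 CPM of Dnaja1 and 118, 90.0, 61.3 and 65.8 CPM of Hspa5, all above the old ad libitum libraries. Together with Hspa5 in precursor-like cells these were the 3 pairs that lay higher without overlap, 4.11% of the 73 beside 3.92% of all pairs. Dnaja1 there gave 0.84 ± 0.22 (adjusted p = 0.102). Leaving out long-term library 3 or young library 1 brought the count of calls to 2. Set against acute restriction, long-term restriction gave 0 calls among the 73 by edgeR and 0 by DESeq2, with 0 at an unadjusted p under 0.05 by either, where 0.0118% of all pairs were called. The median difference was -0.03 on groups alone and 0.02 with the term for the number 1, and it lay between -0.12 and 0.12 when 1 library was left out. Single values on groups alone ran from -0.38 for Dnaja1 to 0.75 for Hsp90aa1, and Hsp90aa1 in microglia-like cells was the 1 pair without overlap (4.59% of all pairs). For Hspa8 the restricted groups differed by -0.01 ± 0.42 in granule-like neurons.

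Other genes of the chaperone network were read from 8 lists of 80 genes, of which 75 were tested in 550 pairs of gene and class. Libraries numbered 1 were higher in 32 of these pairs over 20 genes and lower in 7 over 2 genes. These calls are 7.09% of the 550 beside 9.40% of all pairs, with 5.82% higher beside 3.82% and 1.27% lower beside 5.57%. The members of HSP70 and HSP110 families outside the 9 gave 2 genes of 11 that were higher, Hspa2 and Hspa1a, and 1 that was lower, Hspa12b. Hspa2, an HSP70, was higher in granule-like neurons by 1.26 ± 0.14 (adjusted p = 7.15e-05). Of the other lists, 1 of 2 HSP90 genes (Hsp90b1), 2 of 15 HSP40 genes (Dnajb4 and Dnajb11), 1 of 2 tested small heat shock proteins (Cryab), 4 of 9 chaperonin genes (Hspe1, Tcp1, Cct5 and Cct7), 5 of 17 co-chaperones (Ptges3, Cdc37, Bag1, Bag5 and Hspbp1) and 1 of 4 genes of heat shock factors and their regulators (Hsbp1) were higher in at least 1 class. In all 20 of the 75 listed genes, 26.7%, were higher in at least 1 class, beside 11.9% of all genes. The listed genes were tested in 7.33 classes each on average and all genes in 5.69, which these shares do not take into account. Without young library 1 the lists' 39 calls became 8, without young library 3 they became 25, and without long-term library 2 they became 69. Dnajb4 was higher in inhibitory-like neurons by 0.43 ± 0.08 (adjusted p = 0.00252). Genes of the lists named without a value, here and for endoplasmic reticulum stress, were chosen after their values were seen.

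Endoplasmic reticulum stress genes went both ways between these libraries. Of 15, Creld2, Canx, Calr and Pdia6 were higher in at least 1 class, whereas Manf, which codes for a secreted factor of the stressed endoplasmic reticulum, was lower in 6 classes, by -0.62 ± 0.12 (adjusted p = 0.00214) in granule-like neurons. Jun, 1 of 10 immediate early genes, was higher, by 0.80 ± 0.12 (adjusted p = 0.000598) there, and the 2 cold-inducible RNA-binding proteins had a median of 0.14 over 16 pairs.

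With age, the 8 lists gave 1 pair higher and 6 lower on groups alone, 1.27% of the 550 beside 1.48% of all pairs, a share near that of all genes. In oligodendrocyte-like cells, where Dnaja1 fell, the HSP40 Dnaja2 gave -0.74 ± 0.19 (adjusted p = 0.0183), the co-chaperone Cacybp -1.48 ± 0.38 (adjusted p = 0.0185) and Hspe1, the lid of the HSP60 chamber, -1.41 ± 0.41 (adjusted p = 0.0393). Manf gave -1.26 ± 0.23 (adjusted p = 0.00143) in the same class. These were 4 of the 67 listed genes tested in that class (5.97%), a share near the 6.28% of all genes called there, 4.01% lower. Manf also fell in precursor-like cells by 1.22 ± 0.20 (adjusted p = 0.00100). In granule-like neurons Dnajc6, which codes for the clathrin-uncoating HSP40 auxilin, rose by 0.38 ± 0.09 (adjusted p = 0.0492). With the term for the number 1 the lists gave 5 pairs higher and 31 lower, 6.55% beside 7.13% of all pairs. With depth as a covariate the 7 calls became 0. Without young library 1 the lists' 7 calls became 13, without long-term library 3 they became 12, without young library 2 they became 1, without old ad libitum library 2 or 4 they became 2, and without acute library 2 or 3 they became 4. Of the 10 immediate early genes, which are not among the 8 lists, 1 was called with age in 1 of 44 pairs: Ier2 fell in granule-like neurons by 2.03 ± 0.47 (adjusted p = 0.0454).

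Under acute restriction 3 endoplasmic reticulum stress genes rose in oligodendrocyte-like cells, beside Dnaja1. Herpud1, which acts in degradation from the endoplasmic reticulum, rose by 1.08 ± 0.20 (adjusted p = 0.00168), Manf by 0.88 ± 0.21 (adjusted p = 0.0269) and Pdia4, a disulfide isomerase, by 1.00 ± 0.26 (adjusted p = 0.0452). These were 3 of the 67 listed genes tested in that class (4.48%), where 1.71% of all genes were called, 0.856% higher. No other pair of the 550 was called in this comparison by edgeR, and 1 was called by DESeq2, with no DESeq2 share of all pairs given here. The 3 calls became 0 with depth as a covariate and without old ad libitum library 4, and 1 without acute library 2 or 3 or old ad libitum library 2. Long-term restriction gave 0 of 550 by edgeR and 0 by DESeq2 against old ad libitum mice (32 at an unadjusted p under 0.05 in edgeR), and 0 by both against acute restriction (8).

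The genes whose log2 CPM ran most like the mean of the members' standardised levels in granule-like neurons are given as a description. Over all 13 libraries these were Ddost (Pearson r = 0.95), Emc7 (0.95), Mdh1 (0.95), Jagn1 (0.94) and Ctbp1 (0.94). Over the 9 libraries not numbered 1 they were Syvn1 (0.96), Serp1 (0.95), Mdh1 (0.95), 1700123O20Rik (0.94) and Gm26876 (0.93). Only Mdh1 stood in both sets of 5. The libraries share their group, number and depth, so no p-value is given.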

How the data were processed

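The deposited files are matrices of raw UMI counts per gene and barcode, not normalized, made by the authors with Cell Ranger 4.0.0 on mm10, per the submitters' processing notes. Whether introns and strand entered the counting is not given in the sources used here. Barcodes were kept from 500 genes upward if no more than 5% of their UMIs were mitochondrial, and the barcodes of highest Scrublet score, 0.8% per 1000 barcodes of a library, were removed as doublets. Nuclei were clustered (Leiden, scanpy 1.11.5, 2000 variable genes, 30 components, resolution 1), and a cluster was named where at least 3 markers of a class were raised. None of the members was among the variable genes. A cluster's own markers are not results. UMI counts were summed per library and class for sums of at least 20 nuclei and tested with edgeR 4.0.16 (TMM, filterByExpr by group, quasi-likelihood, R 4.3.3) over all genes of a class and all 13 libraries; DESeq2 1.42.0 was an alternative. Free RNA was not removed from the counts. The depth of each sum limits precision to the UMIs given beside the values.

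The number 1 was a term beside group in its own fit. Replicate numbers, those of the block included, come from the labels; the names of the files carry other numbers for 4 samples, none numbered 1. The 9 members are named in each comparison, and of the other listed genes up to 6 called ones with the smallest adjusted p, beside further listed genes, named for the number 1 after their values were seen; the 5 genes most alike by Pearson correlation are named too. The members, lists and tests were chosen with earlier results of these data known. Alternatives were other size factors, DESeq2, no filter on low counts, 50 nuclei per sum, doublets retained, clustering without chaperone genes, removal of a trend over gene length, depth as covariate, the number 1 as term or left out, a replicate block and each library left out. The cluster-by-cluster fit and depth together with the number 1 were added after seeing the data. The procedure was tested on simulated data, where the share of false calls lay above the threshold set, more so in oligodendrocyte-like than in granule-like sums. Promoter windows come from RefSeq on GRCm38.p6 and gene positions from GENCODE.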

Additional observations from a re-analysis of the deposited data

How the results depend on the processing

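Counts of members' calls for age and for each restriction against old ad libitum mice moved with the setting. Those for the number 1 stayed within 1.5 times the 25 in each alternative but the one without young library 1, and those between the restrictions were 0 in each. No pair called on groups alone or with the number 1 changed sign. The members' median between the restrictions, -0.03, turned to 0.02 with the term for the number 1, 0.02 with the replicate block, 0.03 without libraries numbered 1 and 0.05 with depth and the number 1. For age the 1 call became 5 by DESeq2, 0 with the length trend removed, 0 with depth as covariate, 4 without a filter on low counts, 21 with the term for the number 1 and 12 (1 of them higher) without those libraries. For acute restriction the 1 call became 2 with at least 50 nuclei per sum, 0 by DESeq2, 0 with depth, 0 with depth and the number 1, 4 without the filter, 3 with the term and 3 without libraries numbered 1. For long-term restriction the 0 calls became 1 with at least 50 nuclei, 1 without the filter, 1 with the term and 1 without libraries numbered 1. For the other listed genes the 7 calls with age became 16 by DESeq2, 3 with the length trend removed, 0 with depth, 1 with depth and the number 1, 36 with the term and 21 without libraries numbered 1. Their 3 calls under acute restriction became 1 by DESeq2, 0 with depth, 0 with depth and the number 1 and 5 with the term, their 0 under long-term restriction became 2 without the filter, and their 39 for the number 1 became 65 without it. The cause was not tested. For these alternatives and those below, no share of all pairs is set beside the counts. Only the term for the number 1 has its shares, which stand above.

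Leaving out 1 library gave 0 to 2 members' calls for age, 0 to 3 for acute, 0 to 2 for long-term restriction, 0 to 0 between the restrictions and 13 to 29 for the number 1. For the lists it gave 1 to 13, 0 to 3, 0 to 0, 0 to 0 and 8 to 69. Alternatives for single members and classes were counted only for pairs called for the number 1, on groups alone or with its term. Of these, 1001 stayed on their side of the threshold, 78 lost a call and 69 gained one. The 1001 include 463 for the number 1, and pairs not called on groups alone that stayed so.

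The replicate block gave 20 members' calls for age, 4 for acute and 3 for long-term restriction, and 33 for age and 1 for long-term restriction among the lists. Same-numbered samples did not all deviate together. In granule-like neurons the correlation of deviations was 0.36 to 0.78 for number 1 and -0.12 to 0.39 for number 2. It was -0.05 to 0.34 for number 3 and 0.35 for the 1 pair of number 4. The labels' numbers are thus not taken to pair the samples, and pairing by the numbers of the files was not checked. Depth limits Dnajb1 outside granule-like neurons, with at most 26 UMIs per library, and the microglia-like sums, with at most 86.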
